A study of Homo sapiens with 4 samples.

Results

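The genes described here encode ubiquitin-conjugating enzymes and ubiquitin-specific proteases. They are the RefSeq protein-coding genes of GRCh38 on chromosomes 1 to 22 and X whose symbol starts with UBE2, or with USP followed by a digit, without USP18. This rule took 86 of 19974 protein-coding genes, of which 36 were UBE2 genes and 50 were USP genes. It uses symbols only, so it also took USP6NL, which encodes a regulator of Rab GTPases and no protease, and UBE2V1P16, which carries the symbol of a pseudogene. A further 25 near-identical USP17L copies on chromosomes 4 and 8 were kept apart. The study mapped CHAF1A, the large subunit of the chromatin assembly factor CAF-1, with CUT&Tag. The cells were RBE, an established line of human intrahepatic cholangiocarcinoma. In 2 samples the cells were transfected, with Lipofectamine 3000, with a control siRNA, and in the other 2 with CHAF1A siRNA, for 48 hours before collection. CUT&Tag directs a transposase to an antibody on chromatin, so that sequenced fragments pile up around the antibody's target. There was 1 peak list per group, called the control list and the siRNA list below, and no list per sample.

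Ubiquitin is a small protein that cells attach to other proteins in a cascade. An E1 enzyme activates it, an E2 enzyme carries it, and an E3 ligase directs the transfer from the E2 to a target. Most UBE2 genes encode E2 enzymes. They differ in the E3 ligases they serve and in the linkage of the chains they build, and a few carry relatives of ubiquitin such as NEDD8 or ISG15. The USP genes form the largest family of deubiquitinases, the proteases that take ubiquitin off again. Several USP proteins act on chromatin, where they remove ubiquitin from histones H2A and H2B.

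The lists held 76313 (control) and 97653 (siRNA) peaks on the main chromosomes. The most frequent background recovered at the peak summits was 6.34 overlapping fragments in the control list and 8.49 in the siRNA list. This is a ratio of 1.34, so weaker sites could pass the caller's threshold in the siRNA list. An untargeted control library was not used here, and a peak therefore marks CUT&Tag signal without separating CHAF1A from open chromatin. The extent of the CHAF1A knockdown was not analysed here, and a peak list does not measure it. Biliary genes were among those with a control peak at a gene end (the markers KRT19, KRT7, EPCAM and SOX9, but not CFTR). None of the 4 hepatocyte markers ALB, APOA1, CYP3A4 and TTR had a peak in either list, while the fibroblast markers COL1A1 and PDGFRB had a peak in both. The strongest peaks at KRT19, KRT7 and PDGFRB lay wholly outside these genes, below the boundaries at 41523617, 52233243 and 150113839 (chromosomes 17, 12 and 5). They cannot be given to these genes with certainty. A peak at a gene does not show that the gene is expressed. With 1 list per group, no comparison between the conditions was tested, and differences between the lists are given as values only.

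Most UBE2 and USP genes had a CHAF1A CUT&Tag peak within 1 kb of a gene boundary, and nearly the same genes had one in both lists. In the control list, 67 of the 86 genes (77.9%, 95% exact binomial interval 67.7 to 86.1) had such a peak, against 61.3% of all protein-coding genes. In the siRNA list it was 68 of 86 (79.1%, 69.0 to 87.1), against 64.5% of all genes. A peak in both lists was found at 64 of the 86 genes (74.4%, against 56.4%). A peak in the control list alone was found at 3 genes (3.49%, against 4.92% of all genes) and a peak in the siRNA list alone at 4 genes (4.65%, against 8.09%). The remaining 15 genes had none (17.4%, against 30.6%). The intervals reflect the number of genes only. By family, 30 of 36 UBE2 genes had a control peak and 28 a siRNA peak, and 37 of 50 USP genes had a control peak and 40 a siRNA peak. The plot of shares sets both families beside all genes and beside other genes of the pathway.

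**Figure D1:**
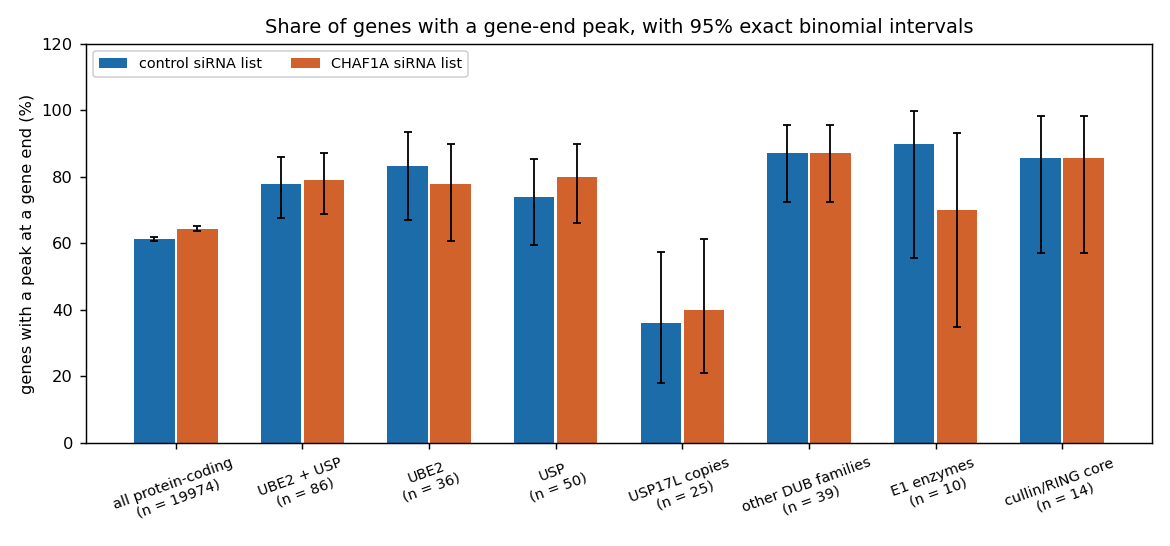
Share of genes (vertical axis, percent) with a peak within 1 kb of a gene boundary in the control list (blue) and the siRNA list (orange), with 95% exact binomial intervals as black lines. The UBE2 and USP genes stand at 77.9% and 79.1%, all protein-coding genes at 61.3% and 64.5%, and the USP17L copies at 36.0% and 40.0%.

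The peaks at these genes were of middling to high strength for gene-end peaks. Strength is given as the authors' fold enrichment, the pileup at the summit over its background, and as −log10 q, both valid within a list. Where a gene below is followed by a pair of values, they are its fold enrichments in the control list and then in the siRNA list. In the control list, the strongest peak per gene had a median fold enrichment of 6.19 (range 3.12 to 15.5), where the median over all protein-coding genes with a peak was 5.44. In the siRNA list the median was 5.98 (2.75 to 13.7), against 4.43 over all genes. Ranked by −log10 q among all protein-coding genes with a peak in the same list, the median gene stood at the 64.5th percentile in the control list and the 69.5th in the siRNA list. The USP genes had medians at the 70.0th and 70.9th percentiles. The UBE2 genes had medians at the 48.1th and 61.5th. The plot of fold enrichment by gene shows that a gene with a strong peak in the control list generally had a strong one in the siRNA list.

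**Figure D2:**
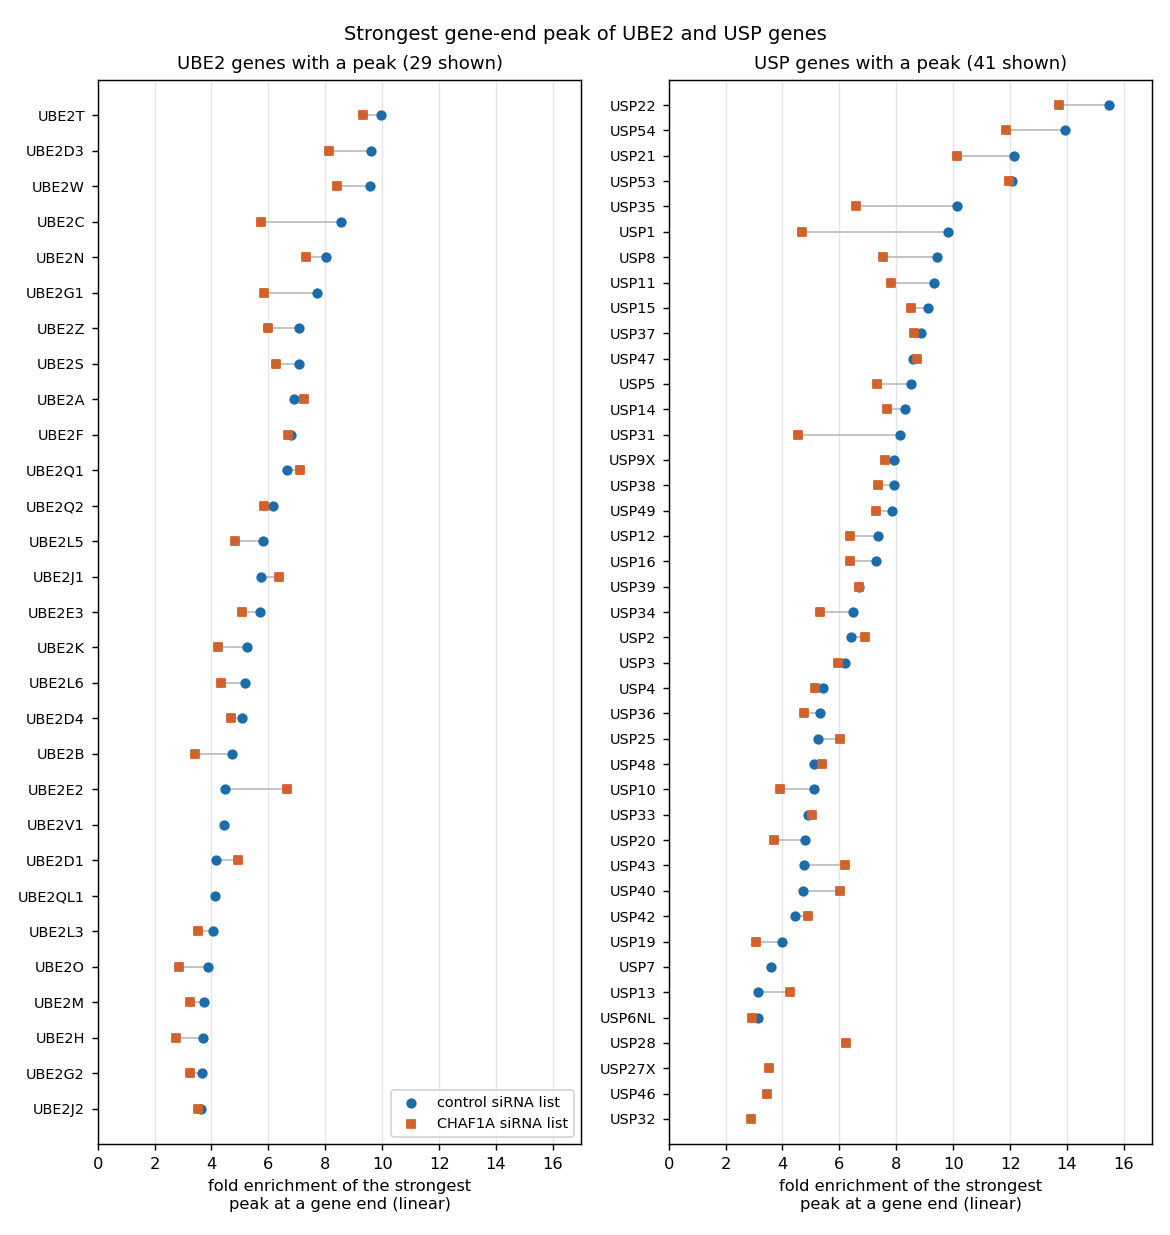
Fold enrichment (horizontal axis, linear) of the strongest gene-end peak of the UBE2 genes (left) and USP genes (right) that are reported by name and had one, in the control list (blue circles) and the siRNA list (orange squares), sorted by the control value; a single symbol means a peak in 1 list. USP22 leads at 15.5 and 13.7, and the UBE2 genes reach 9.94 (UBE2T) in the control list.

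Among the E2 enzymes that build chains for the cell cycle, both genes had strong peaks. UBE2C, which starts ubiquitin chains for the anaphase-promoting complex, had the highest −log10 q among the gene-end peaks of UBE2 genes in the control list. Its peak on chromosome 20 (45812262 to 45812963) had a fold enrichment of 8.54 with −log10 q of 108.5, and its siRNA peak (45812295 to 45813088) had 5.75 and 56.6. This peak also lay at the end of DNTTIP1, so it cannot be given to UBE2C alone. UBE2S, which extends those chains, had a fold enrichment of 7.07 (control) and 6.28 (siRNA).

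All 3 E2 genes of DNA repair carried a peak in both lists, as did 56.4% of all genes. UBE2T, the E2 enzyme of the Fanconi anaemia pathway, had the highest fold enrichment among the gene-end peaks of UBE2 genes (control 9.94, siRNA 9.34), at chromosome 1, 202341676 to 202342196. UBE2A and UBE2B, the human counterparts of yeast RAD6, had fold enrichments of 6.91 and 4.71 in the control list and 7.24 and 3.43 in the siRNA list.

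The E2 genes of K63-linked chains were not alike at their annotated ends. UBE2N, the catalytic subunit that builds these chains, had fold enrichments of 8.02 (control, chromosome 12, 93441865 to 93442774) and 7.32 (siRNA). Of its inactive partner subunits, UBE2V1 had a gene-end peak in the control list alone, and UBE2V2 had one in neither list. Further inside, both genes had peaks in both lists. UBE2V1 had 3.32 (control) and 3.15 (siRNA) at another start site, and UBE2V2 had 3.81 and 3.75 at its strongest inner peaks.

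Genes for carriers of ubiquitin-like proteins had a peak in both lists, as did 56.4% of all genes. UBE2Z, which carries FAT10, had 7.09 (control) and 6.00 (siRNA), with the group's highest −log10 q in both lists, 106.4 and 125.2. UBE2F and UBE2M, the E2 enzymes of NEDD8, had fold enrichments of 6.79 and 3.73 in the control list. UBE2L6, the E2 enzyme of ISG15, had 5.18 there. Their siRNA values were 6.68 (UBE2F), 3.24 (UBE2M) and 4.34 (UBE2L6).

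The 4 genes listed for degradation at the endoplasmic reticulum also had a peak in both lists, against 56.4% of all genes. Their median −log10 q stood at the 25.4th percentile in the control list and the 42.4th in the siRNA list. UBE2G1 stood apart at 7.72 (control) and 5.84 (siRNA), and UBE2J1, an E2 enzyme anchored in the reticulum's membrane, had 5.73 and 6.37. UBE2J2 and UBE2G2 had 3.65 and 3.67 in the control list and 3.53 and 3.26 in the siRNA list. They were the only 2 genes of the 64 whose strongest peaks in the lists did not overlap. For UBE2G2 the control peak (44801848 to 44802107 on chromosome 21) ended just before the siRNA peak began (44802128 to 44802400). For UBE2J2 the stronger siRNA peak lay inside the gene, and a second siRNA peak (fold enrichment 3.39) overlapped the control peak.

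The UBE2D genes encode closely related E2 enzymes that work with many E3 ligases. UBE2D3 had a fold enrichment of 9.60 (control) and 8.14 (siRNA) at its 5′ boundary, a site it shares with CISD2. UBE2D4 had 5.06 and 4.68, UBE2D1 had 4.15 and 4.95, and UBE2D2 had no peak at its annotated ends. In the UBE2E group, UBE2E3 had 5.72 and 5.06, UBE2E2 had 4.46 and 6.64, and UBE2E1 had no gene-end peak. Of the other UBE2 genes, UBE2W, which ubiquitinates protein N termini, had the strongest gene-end peak (9.56 and 8.42). UBE2Q1 (6.66 and 7.10) and UBE2L5 (5.80 and 4.82) followed in −log10 q.

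The USP genes held the strongest gene-end peaks. USP54, which is related to USP53 and was long counted as an inactive member, had the highest −log10 q of all 86 genes, at 869.6 (control) and 1316 (siRNA). Its peak on chromosome 10 spanned 73625129 to 73626491 in the control list and 73625129 to 73626520 in the siRNA list, with fold enrichments of 13.9 and 11.9. USP53 had 12.1 and 12.0 at chromosome 4, 119212119 to 119213322. USP5, which takes apart free ubiquitin chains, had 8.50 and 7.33 over a peak of 1927 bp that it shares with CDCA3. USP35 had 10.1 and 6.57, at a site shared with KCTD21.

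Of the 8 genes for deubiquitinases of histones H2A and H2B, 5 had a control peak (against 61.3% of all genes) and 6 a siRNA peak (against 64.5%), shares near those of all genes. USP22, the H2B protease of the SAGA coactivator complex, had the highest fold enrichment among the gene-end peaks of the 86 genes. It was 15.5 in the control list (chromosome 17, 21042755 to 21043793) and 13.7 in the siRNA list (21042682 to 21043793). USP21 had 12.1 and 10.1, but this peak (chromosome 1, 161165863 to 161167112) lay beyond its 3′ end, at PPOX. The peak at the 5′ end of USP21 had 4.06 and 3.76 and is shared with UFC1, the E2 enzyme of the ubiquitin-like protein UFM1. USP49 had 7.86 and 7.28 and USP16 had 7.27 and 6.36. USP3 had 6.19 and 5.95, with its control summit at −1283 bp from the start site, on the upstream side. USP27X had a gene-end peak in the siRNA list alone, and USP44 and USP51 had one in neither list.

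In the group of DNA damage and p53, USP47 (8.60 and 8.73) and USP11 (9.33 and 7.80) had the highest −log10 q. USP1, which acts on the Fanconi protein FANCD2 and on PCNA, had a fold enrichment of 9.82 (control) and 4.68 (siRNA), at summit pileups of 107 and 50 fragments. The values of a peak depend on the depth of its list, and the most frequent background was higher in the siRNA list (8.49, against 6.34). The difference at USP1 was not tested, so this pair of values is a description. USP10, which stabilises p53, had 5.09 and 3.91. USP7, the protease of MDM2 and p53, had a control peak alone, and USP28, a stabiliser of MYC, a siRNA peak alone.

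All 3 genes listed for splicing had a peak in both lists (against 56.4% of all genes): USP39, a spliceosome protein without protease activity (6.70 and 6.69), USP15 (9.11 and 8.51) and USP4 (5.41 and 5.13). All 5 genes listed for Hippo, MYC, TGF-beta and other signalling did so as well, against the same share. By control −log10 q the first was USP9X (7.91 and 7.59), whose control peak of 2310 bp was the widest among the strongest gene-end peaks of the 86 genes. The others were USP37 (8.88 and 8.62), USP36 (5.32 and 4.75), USP2 (6.40 and 6.91) and USP25 (5.23 and 6.01). Of the 6 genes of the proteasome and organelles, 5 had both peaks, again against 56.4%. USP8, a regulator of receptor sorting at endosomes, had 9.42 and 7.52, and USP14, which binds the proteasome, had 8.32 and 7.67. USP33 (4.90 and 5.03), USP20 (4.81 and 3.72) and USP19 (3.98 and 3.06) were lower, and USP30 had none. USP6NL, taken by its symbol though it encodes a regulator of Rab GTPases, had the lowest control fold enrichment among the strongest gene-end peaks of the set (3.12, and 2.94 in the siRNA list).

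The 7 genes with a gene-end peak in 1 list only had peaks of low to middle rank. In the control list alone, UBE2V1 had a fold enrichment of 4.43 with −log10 q of 27.7 at chromosome 20, 50115961 to 50116132. This peak was 172 bp wide, the narrowest among the genes' strongest control peaks. Its recovered background of 19.3 fragments was above the control list's most frequent value of 6.34. The nearest siRNA peak was 2737 bp away, at another start site of UBE2V1. USP7 had 3.60 with −log10 q of 9.42 (chromosome 16, 8964014 to 8964338) and UBE2QL1 had 4.12 with 9.15 (chromosome 5, 6447865 to 6448509). A siRNA peak lay 270 bp from the UBE2QL1 peak, outside the window.

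In the siRNA list alone, USP28 had a fold enrichment of 6.22 with −log10 q of 25.9 at chromosome 11, 113875323 to 113875730. Its summit held 58 fragments over a background of 8.49, and no control peak lay within 99040 bp of it. USP46, whose protein works with the same cofactor as USP1 and USP12, had 3.46 with −log10 q of 9.78, and the nearest control peak was 25146 bp away. USP27X had 3.53 with −log10 q of 8.03, and this peak overlapped one of the control list, which began 1246 bp from the gene. USP32 had 2.90 with −log10 q of 6.15 at its 3′ boundary. With siRNA pileups and backgrounds scaled down to the control background, all 4 of these siRNA peaks still passed the caller's p of 1e-05. Among the peaks next to the 1 kb limit, the siRNA peak of USP27X was 726 bp from the gene. The nearest ones beyond it were siRNA peaks at UBE2R2 and UBE2QL1, at 1094 and 1264 bp from a boundary, and the control peak at USP27X.

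Of the 15 genes with no gene-end peak, 5 had a peak at a listed start site inside the gene, 4 had inner peaks in at least 1 list but at no listed start site, and 6 had no peak. The promoter table lists start sites for 68 of the 86 genes. UBE2D2 had the strongest peak of the 5. RefSeq extends this gene 35099 bp upstream of the start site in the table (chromosome 5, 139561339), and a peak covered that site in both lists, with fold enrichments of 14.9 (control) and 13.8 (siRNA) and −log10 q of 563.0 and 909.1. Among the gene-end peaks of the 86 genes, only that of USP54 had a higher −log10 q in either list. USP45 had a peak at its start site 2423 bp inside the boundary (6.70 and 6.51), and so had UBE2R2, which serves cullin ligases, at 1992 bp (4.03 and 4.98). UBE2E1 (3.72 and 3.19) and USP30, a protease of the mitochondrial outer membrane (3.50 and 3.51), had weaker peaks at inner start sites. USP32, counted above for a 3′ peak, had 5.39 and 6.10 at its start site.

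Inner start sites also held the strongest peak of some genes that had one at their ends. At UBE2D3, a cluster of start sites about 41 kb inside the gene had 12.9 (control) and 11.2 (siRNA), above its boundary peak. At USP39, a start site 13325 bp inside had 10.8 and 10.1. Counting a peak within 1 kb of any listed start site, 59 of 68 genes (86.8%, against 62.1% of all 15813 genes in the table) had a control peak and 60 of 68 (88.2%, against 65.0%) a siRNA peak. By that count 57 genes, UBE2V1 among them, had a peak in both lists (83.8%, against 57.9%). USP7 and UBE2QL1 were the 2 with a control peak alone (2.94%, against 4.21%), and USP27X, USP28 and USP46 the 3 with a siRNA peak alone (4.41%, against 7.14%). Neither list had one at the 6 genes UBE2U, UBE2V1P16, USP2, USP6, USP29 and USP50 (8.82%, against 30.8%). USP2 is among these because the table holds only an inner start site for it.

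No peak in the gene or within 1 kb of it was found in either list at UBE2U, UBE2V1P16, USP26, USP29, USP50 and USP51. USP26 is known from the testis, and USP29 from an imprinted locus. USP44 had an inner peak in the siRNA list alone, of fold enrichment 2.74. USP6, a hominoid gene formed from USP32 and TBC1D3, had inner peaks in both lists, the strongest by −log10 q of fold enrichment 3.33 and 2.87. USP24 had 5.45 and 4.92 and UBE2V2 had 3.81 and 3.75 at inner peaks, and the table lists no start site for them.

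The peaks lay at the 5′ ends. Among the 68 genes of known strand, 54 had a control peak at the 5′ boundary (79.4%, against 58.8% of the 15813 genes of known strand) and 54 a siRNA peak (79.4%, against 61.3%). At the 3′ boundary, 3 genes had a control peak (4.41%, against 14.0%) and 8 a siRNA peak (11.8%, against 18.4%). These 3′ counts depended on the settings: a 3 kb window gave 14 and 22, and −log10 q of at least 10 left 4 in the siRNA list. The control genes were USP3, USP5 and USP21, and all 3 also had a 5′ peak (4.41%, against 9.69% of genes with both). In the siRNA list 7 genes had a peak at both ends (10.3%, against 13.5%). For 51 of 54 genes in the control list the summit of the strongest peak was within 1 kb of the outermost start site, at a median of −80 bp, that is 80 bp upstream. In the siRNA list it was 50 of 55 genes, at a median of −93.5 bp. Over all genes it was 8261 of 9970 and 8410 of 10471, and the medians were −72 bp and −56 bp. The start site itself lay inside the peak for 40 of 54 genes in the control list and 41 of 55 in the siRNA list. The plot of distance against fold enrichment shows the strong peaks near the start site.

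**Figure D3:**
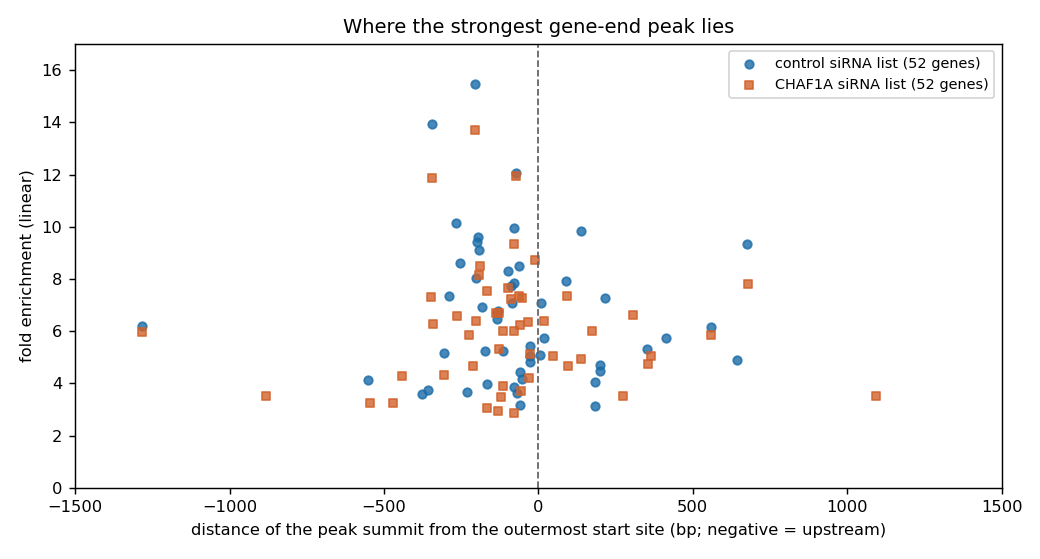
Distance of the summit of the strongest gene-end peak from the outermost RefSeq start site (horizontal axis, bp, negative upstream) against its fold enrichment (vertical axis, linear), for UBE2 and USP genes of known strand whose summit falls in the plotted range, in the control list (blue circles) and the siRNA list (orange squares). Most summits sit upstream of the dashed start site line, 36 of 51 in the control list and 38 of 50 in the siRNA list counted within 1 kb.

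Where the strongest peaks of the lists overlapped, most of their summits lay close together. For these 62 genes the summits were a median of 18 bp and at most 598 bp apart, and 45 pairs were within 100 bp. The 2 genes whose strongest peaks did not overlap, UBE2J2 and UBE2G2, are not in this count. USP22, USP53, USP54, USP5 and UBE2T were among the pairs with the same distance to the start site in both lists. Of all 86 control peaks at the ends of these genes, 75 (87.2%, 78.3 to 93.4) overlapped a siRNA peak, against 83.6% of the control peaks at the ends of all protein-coding genes. Of the 83 siRNA peaks, 70 (84.3%, 74.7 to 91.4) overlapped a control peak, against 74.3%. In each list, 14 of the strongest peaks also lay at an end of another protein-coding gene. Signal at USP19 and LAMB2, USP20 and C9orf78, USP37 and CNOT9, or UBE2B and CDKL3 therefore cannot be assigned to either gene. Counting any other RefSeq gene, 36 of 67 strongest control peaks and 36 of 68 siRNA peaks did so. Those of USP53, USP47 and UBE2W were among them.

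Promoter sequences are printed for 8 genes on which these results turn, from RefSeq (GRCh38.p14), as 300 bases from 250 before the start site, 5′ to 3′ on the strand of the gene. Capitals mark the letters of any of 8 motifs searched on both strands, given here by the factor or element they are known for. The SP and KLF letters were GGGCGG and those of ETS factors were CCGGAAG. NF-Y was searched for as CCAAT, and YY1 was searched for as AAGATGGC. For NRF1 the letters were GCGCATGCG, and for the CRE they were TGACGTCA. The E-box was taken as CACGTG, while the TATA box was taken as TATAAA. Neighbouring matches can touch or overlap. A match is a description of the letters. The first 3 sequences belong to genes with strong peaks in both lists: UBE2D2 at its inner start site (chr5:139561089-139561388, plus strand), USP22 (chr17:21042962-21043261, minus strand) and UBE2N (chr12:93441898-93442197, minus strand).
UBE2D2: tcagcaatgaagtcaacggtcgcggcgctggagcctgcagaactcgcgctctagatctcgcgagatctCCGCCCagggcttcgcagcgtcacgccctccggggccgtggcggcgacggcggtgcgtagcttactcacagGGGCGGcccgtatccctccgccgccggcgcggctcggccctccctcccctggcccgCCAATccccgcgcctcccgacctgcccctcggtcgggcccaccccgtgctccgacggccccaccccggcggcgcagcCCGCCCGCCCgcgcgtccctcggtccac
USP22: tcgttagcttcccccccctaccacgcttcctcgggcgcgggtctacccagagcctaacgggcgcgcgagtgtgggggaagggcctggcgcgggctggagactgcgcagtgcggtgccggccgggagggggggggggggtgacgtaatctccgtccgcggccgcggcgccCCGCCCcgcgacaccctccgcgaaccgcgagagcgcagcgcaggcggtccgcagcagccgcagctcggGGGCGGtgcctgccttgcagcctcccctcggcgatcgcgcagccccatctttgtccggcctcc
UBE2N: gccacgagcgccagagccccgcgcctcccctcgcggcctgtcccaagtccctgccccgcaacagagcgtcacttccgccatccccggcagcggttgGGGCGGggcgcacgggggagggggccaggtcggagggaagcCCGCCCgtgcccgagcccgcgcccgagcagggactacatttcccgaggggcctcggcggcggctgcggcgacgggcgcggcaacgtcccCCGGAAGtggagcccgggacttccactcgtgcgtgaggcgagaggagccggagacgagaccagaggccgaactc
The next 3 belong to genes with a peak in 1 list only: UBE2V1 (control, chr20:50115908-50116207, minus strand), USP7 (control, chr16:8963857-8964156, minus strand) and USP28 (siRNA, chr11:113875523-113875822, minus strand).
UBE2V1: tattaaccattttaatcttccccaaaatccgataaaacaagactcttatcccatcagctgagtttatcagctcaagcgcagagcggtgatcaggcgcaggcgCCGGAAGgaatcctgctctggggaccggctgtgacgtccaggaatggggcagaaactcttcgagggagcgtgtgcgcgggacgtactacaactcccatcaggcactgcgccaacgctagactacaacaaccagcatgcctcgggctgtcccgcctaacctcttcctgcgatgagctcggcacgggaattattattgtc
USP7: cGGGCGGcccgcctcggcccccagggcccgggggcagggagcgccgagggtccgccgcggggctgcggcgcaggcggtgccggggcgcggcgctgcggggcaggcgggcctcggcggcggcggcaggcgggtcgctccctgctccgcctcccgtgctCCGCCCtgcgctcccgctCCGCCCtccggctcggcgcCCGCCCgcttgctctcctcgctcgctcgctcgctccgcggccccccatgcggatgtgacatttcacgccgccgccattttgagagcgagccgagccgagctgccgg
USP28: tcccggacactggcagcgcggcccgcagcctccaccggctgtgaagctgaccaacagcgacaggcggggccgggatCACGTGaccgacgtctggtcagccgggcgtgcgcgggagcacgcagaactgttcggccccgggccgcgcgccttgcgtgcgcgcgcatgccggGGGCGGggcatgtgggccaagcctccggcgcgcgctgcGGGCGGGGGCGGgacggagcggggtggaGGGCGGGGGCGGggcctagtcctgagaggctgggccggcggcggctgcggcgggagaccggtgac
The last 2 belong to genes with a peak in neither list: UBE2U (chr1:64203373-64203672, plus strand) and USP29 (chr19:57118837-57119136, plus strand).
UBE2U: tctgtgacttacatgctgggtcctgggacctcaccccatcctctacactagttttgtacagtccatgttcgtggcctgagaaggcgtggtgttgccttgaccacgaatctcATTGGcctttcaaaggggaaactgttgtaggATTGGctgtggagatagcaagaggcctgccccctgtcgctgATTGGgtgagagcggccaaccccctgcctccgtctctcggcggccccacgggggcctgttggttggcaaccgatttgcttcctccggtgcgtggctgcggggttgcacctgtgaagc
USP29: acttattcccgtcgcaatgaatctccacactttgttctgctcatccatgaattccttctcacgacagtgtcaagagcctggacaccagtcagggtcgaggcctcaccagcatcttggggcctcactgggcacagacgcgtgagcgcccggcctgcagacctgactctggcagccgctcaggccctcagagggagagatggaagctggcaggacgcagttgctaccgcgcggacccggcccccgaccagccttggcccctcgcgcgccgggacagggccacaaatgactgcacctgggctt

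The promoters of the UBE2 and USP genes were rich in G, C and CpG. Over the 68 genes in the table the median GC content was 71.3%, against 62.7% over all 15813 protein-coding genes, and the median number of CpG was 35, against 22. GGGCGG was found in 54 of 68 promoters (79.4%, against 58.3% of all) and the ETS letters in 16 (23.5%, against 14.1%). CCAAT was in 20 (29.4%, against 36.4%), the YY1 letters in 4 (5.88%, against 3.86%), CACGTG in 3 (4.41%, against 8.82%) and TATAAA in 3 (4.41%, against 9.75%). The NRF1 and CRE letters were found in 1 promoter each (1.47%, against 2.77% and 2.56%). Of the sequences above, USP7 had a GC content of 81.3% with 50 CpG, USP28 78.0% with 44 and UBE2D2 76.0% with 45. UBE2V1 had 54.3% with 20 CpG and held no GGGCGG, and UBE2U had 59.0% with 13.

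Within the set, 51 genes in the table had a gene-end peak in both lists and 10 in neither. The split ignores inner start sites: of the 10 promoters, those of UBE2D2, UBE2R2 and USP45 lie at start sites with a peak in both lists, and these are 3 of the 4 with GGGCGG. The median number of CpG was 36 in the former and 19 in the latter, and GGGCGG was in 44 of 51 (86.3%) and 4 of 10 (40.0%). The ETS letters were in 15 of 51 and in 0 of 10. All protein-coding genes showed the same order: 26 CpG with a peak in both lists and 7 with a peak in neither, GGGCGG in 70.2% and 36.2%, and the ETS letters in 19.7% and 4.94%. Promoter composition thus moved with the presence of peaks, and its part in the share of genes with a peak was not tested. The plot of motif shares sets these values side by side.

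**Figure D4:**
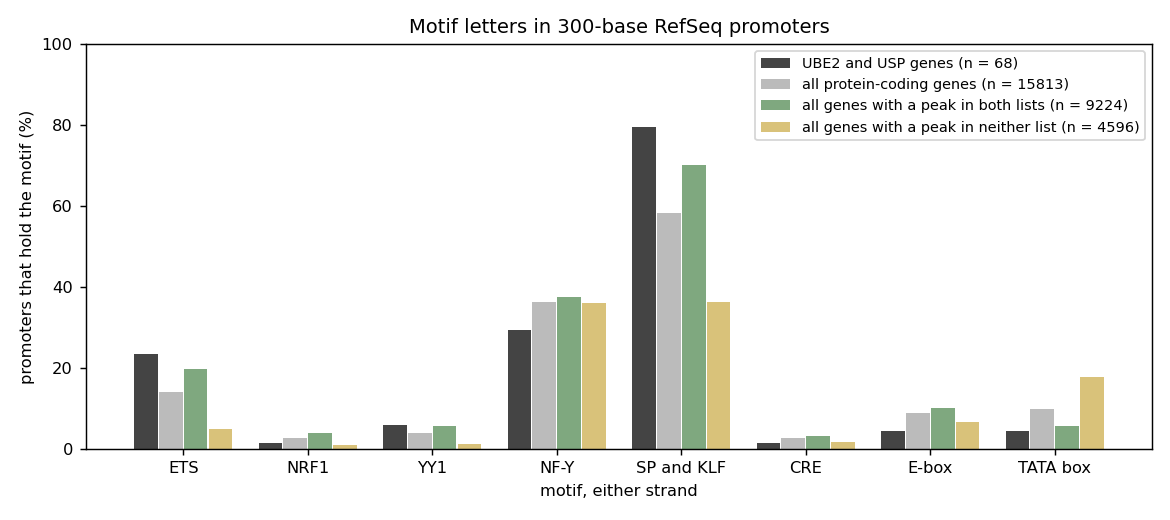
Share of 300-base RefSeq promoters (vertical axis, percent) that hold the letters of each motif on either strand, for the UBE2 and USP genes (dark grey), all protein-coding genes (light grey), and all genes with a gene-end peak in both lists (green) or in neither (yellow). The SP and KLF letters stand at 79.4%, 58.3%, 70.2% and 36.2% in that order.

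The USP17L copies differed from the rest of the set. They are single-exon genes of 1 tandem repeat on chromosome 4 and of a second locus on chromosome 8, and reads from near-identical copies cannot be placed on 1 of them with certainty. How the authors treated reads with several placements was not stated in what was used here, so the values given for single copies are those of the positions in the lists and may belong to other copies. Of 25 copies, 9 had a gene-end peak in the control list (36.0%, against 61.3% of all genes) and 10 in the siRNA list (40.0%, against 64.5%). All of them were among the 19 copies on chromosome 4, and 0 of the 6 on chromosome 8 had one in either list. The chromosome 4 copies span 9210657 to 9364721 at a median spacing of 4747 bp. That stretch with 1 kb on each side held 16 control peaks of fold enrichment 2.73 to 9.51 and 21 siRNA peaks of 2.51 to 9.84. The positions with the highest values were those of USP17L22 (9.51 and 7.43) and USP17L11 (8.65 and 9.84). A peak in both lists was found at 7 of the 25 copies, against 56.4% of all genes. A peak in the control list alone was found at 2 copies (against 4.92% of all genes). A peak in the siRNA list alone was found at 3 copies (against 8.09%). The peaks did not repeat in every unit, as the plot by copy shows.

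**Figure D5:**
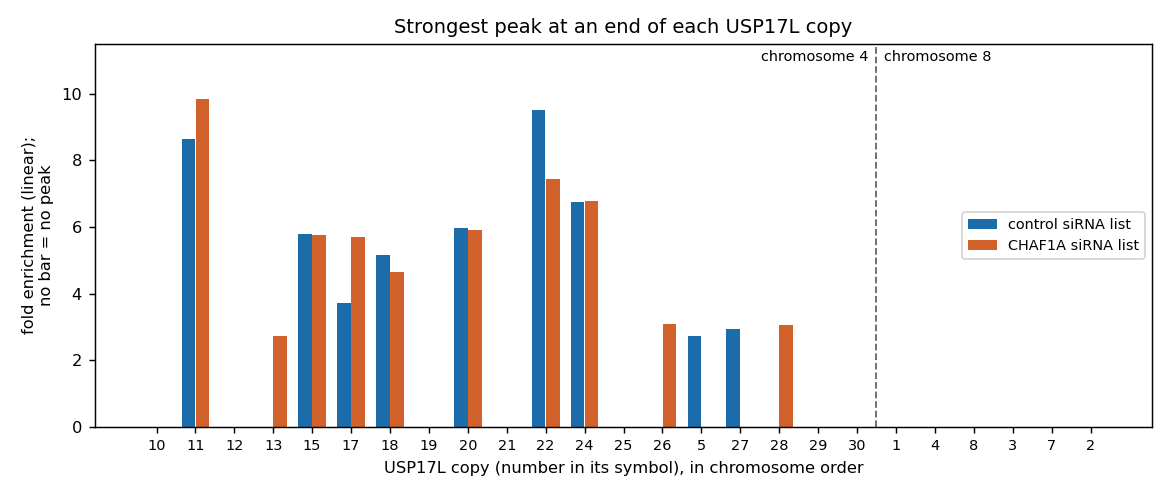
Fold enrichment (vertical axis, linear, from 0) of the strongest gene-end peak of each of 25 USP17L copies in chromosome order, in the control list (blue) and the siRNA list (orange); no bar means no peak. Bars are present at 12 of the 19 chromosome 4 copies and at 0 of the 6 chromosome 8 copies.

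Other genes of the ubiquitin pathway, from lists chosen by function, had peaks in most cases. Of 83 such genes, 72 had a control peak and 70 a siRNA peak (against 61.3% and 64.5% of all genes). Both lists had one at 68 genes (against 56.4%), and neither did at 9 (against 30.6%). Of 39 deubiquitinases outside the USP symbols, 34 had a peak in both lists (against 56.4% of all genes) and 0 in 1 list only (against 4.92% with a control peak alone and 8.09% with a siRNA peak alone). The highest control −log10 q were those of PAN2, a deadenylase subunit with an inactive USP fold (control 13.7, siRNA 10.6), and JOSD2 (6.87 and 4.95). Both PAN2 peaks lay wholly outside the gene, beyond its boundary at 56316936 on chromosome 12. They spanned 56315303 to 56316501 (control) and 56315001 to 56316581 (siRNA), so they cannot be given to PAN2 with certainty. BAP1, a deubiquitinase of H2A that is mutated in some cholangiocarcinomas, had 9.51 and 8.50. VCPIP1 (10.5 and 8.76) and OTUB2 (6.82 and 4.42) were the first of the OTU family by control −log10 q, and MPND (8.79 and 7.34) and BRCC3 (9.87 and 7.56) the first of the JAMM family. OTUD3, UCHL1, ATXN3L, OTUD6A and ALG13 had no peak in either list.

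Of 10 activating enzymes, 9 had a control peak (against 61.3% of all genes) and 7 a siRNA peak (against 64.5%). Their median −log10 q stood at the 29.8th percentile in the control list and the 29.3rd in the siRNA list. UBA6 had 10.7 and 9.59 and UBA1, the main E1 enzyme of ubiquitin, 4.11 and 4.25. ATG7 (4.17) and UBA2, a subunit of the SUMO E1 (3.56), had a control peak alone. Among 8 E2-like genes with other symbols, AKTIP (8.03 and 7.50) and ATG3 (9.78 and 8.58) had the highest control −log10 q, and UEVLD had a siRNA peak alone (3.32). Of 12 genes for ubiquitin and its relatives, FAU (6.19 and 4.95) and RPS27A (8.20 and 7.06), which encode ubiquitin-like and ubiquitin fusions to ribosomal proteins, had the highest control −log10 q. SUMO3 had a control peak alone (2.71), and UBB had none. Of 14 cullin and RING genes, 12 had a peak in each list (against 61.3% and 64.5% of all genes), and CUL3 (14.5 and 13.7) and CUL5 (10.4 and 12.3) had the highest control −log10 q. CUL1 had a control peak alone (4.41) and CUL9 a siRNA peak alone (2.18).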

How the data were processed

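The data are 2 lists of CUT&Tag peaks, 1 for each group of 2 samples. The labels do not say whether samples were pooled, and the lists were matched to the groups by name (NC and si). Per the submitters' processing notes, the authors worked with hg38 and with MACS2 2.1.2, deepTools 3.4.3, fastp 0.20.1 and Bowtie2 2.2.5. In the deposited files, the fold enrichment is the ratio, on a linear scale, of summit pileup to background, and p and q are deposited as −log10 values. Positions are printed counting from 1. Peaks outside chromosomes 1 to 22, X and Y were left out (868 control, 886 siRNA). Gene boundaries, start sites and strand came from RefSeq tables of GRCh38.p14, matched by gene ID. A gene had a peak if at least 1 bp of it lay within 1 kb of either boundary, and sharing meant overlap by at least 1 bp. Where −log10 p was under 290, pileup and background were solved from fold enrichment and p. A solution was found for 99.1% of peaks in either list, over 99.9% of them to a whole pileup within 0.02 fragments. This step and the overlaps were checked on simulated data.

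The genes, lists, roles and motifs were chosen with earlier results of these data known. The named genes are, per family, the 8 with the highest control −log10 q, then all with a peak in 1 list or in neither, all whose peaks do not overlap, the strongest of each role group, and, per pathway list, the strongest 2 and those with a peak in 1 list. A few genes are counted but not reported by name here. Other UBE2 and USP genes, further genes of these lists and the neighbouring genes were named after their values had been seen. Alternatives were −log10 q of at least 5 or 10, equal numbers of peaks per list, a 3 kb window, summits in place of whole peaks, stricter overlap and ranking by fold enrichment; scaling the siRNA list to the control background and counting any listed start site were added after seeing the data. With 1 list per group no test was run. Shares carry exact Clopper-Pearson binomial intervals at 95%. Scripts ran in Python 3.11.15 with matplotlib 3.10.9, scipy 1.17.1, pandas 2.3.3 and numpy 2.4.6.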

Additional observations from a re-analysis of the deposited data

How the results depend on the processing

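No paired analysis was possible because each list stands for its whole group, and for the same reason no replicate could be left out in turn. Of 116 recomputed values, all but 11 stayed within 1.5 times of a count or within the binomial interval of a share. With the 3 kb window, the genes with a control peak alone went from 3 to 1. That window raised the genes of known strand with a 3′ peak from 3 to 14 in the control list and from 8 to 22 in the siRNA list, and those with a peak at both ends from 3 to 14 and from 7 to 21. With −log10 q of at least 10, the siRNA list had 4 genes with a 3′ peak and 4 with both ends. Requiring 50% reciprocal overlap left 67.4% of control and 69.9% of siRNA peaks shared. Ranking by fold enrichment put the median gene at the 60.9th percentile in the control list and the 72.7th in the siRNA list. At −log10 q of at least 10, 61 control and 62 siRNA genes of 86 had a peak, against 50.8% and 51.4% of all genes. UBE2V1 and USP28 then kept a peak in 1 list only, USP7, UBE2QL1, USP46, USP32 and USP27X had none, UBE2H had one in the control list alone, and UBE2J2 and USP13 in the siRNA list alone. Without read totals or lists per sample, a peak missing from 1 list cannot be told from one just under its threshold.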

Other observations

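Peaks inside the UBE2 and USP genes, outside the end windows, are counted here. There were 131 in the control list, at 54 of the 86 genes, or 2.17 per 100 kb, against 2.52 over all protein-coding genes. In the siRNA list there were 197, at 60 genes, or 3.26 per 100 kb, against 3.37. USP20 had the most in the control list (7, as had USP54), and USP34, which acts on axin in Wnt signalling, the most in the siRNA list (11, against 2 in the control list). USP2, a protease of cyclin D1, had its strongest control peak inside the gene, with a fold enrichment of 8.82 and −log10 q of 89.8.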
